A study of Bombus terrestris with 33 samples.

Results

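The brain mRNA of queens from 2 commercial colonies of the buff-tailed bumblebee, Bombus terrestris, was compared. The 22 queens were all those labelled with colony of origin C2 (10 queens) or C3 (12 queens), out of 33 queens in the study. Gynes, the young females that become queens, were offered males at 5 days of age. FM queens failed to mate and were handled like the mated ones. SM queens did mate, and their brains were frozen 3 days after it. FR and SR queens mated, were kept for 8 weeks at 5 °C to hibernate and were frozen 1 month afterwards, FR queens with undeveloped ovaries and SR queens with mature eggs. Both colonies held queens of every group. Colony C2 had 3 FM, 2 SM, 3 FR and 2 SR queens, and colony C3 had 3 of each. The other 2 colonies of the study held 1 stage each: C7 only FM and SM queens (6) and C9 only FR and SR queens (5). The comparison asked how far groups of sisters differed in brain expression once the group was taken into account.

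Gynes raised in a bumblebee colony are as a rule daughters of its one founding queen. In this species the founder usually mates with a single male, and because bee males carry a single set of chromosomes, full sisters are close kin. Gynes of one colony also share the nest, its workers and its food before they are removed. With 1 colony on each side, kinship and rearing cannot be told apart, and the tests compare these colonies rather than colonies in general. The sources used here do not say how gynes of the colonies were divided among boxes, mating cages, library batches and sequencing lanes, so a technical split by colony cannot be told apart from these either.

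Each queen gave 1 library, with 44596022 to 55807371 reads in C2 and 42858092 to 56845862 reads in C3. The features were 10672 contigs, of which 5680 passed the filter on low counts. No identifier could be paired with a gene of the reference table, so no contig has a name or a known role here, and the tissue label could not be read against brain markers. Levels are CPM, a contig's reads relative to the library's total after TMM scaling over the 22 libraries. Estimated ages, taking the label's number as days, were 16 to 22 days in C2 and 13 to 27 days in C3 for FM queens. They were 96 to 99 and 91 to 97 days for FR queens, and 94 to 96 and 95 to 96 days for SR queens. Only in SM queens did the colonies not overlap, at 17 to 19 days in C2 and 11 to 14 days in C3. These SM ages are above those of queens that mated at 5 days and were frozen 3 days later. This gap between the labels was not examined.

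A few libraries stood apart and are named beside the results they touch. FM replicate 6 of C3 lay far from the other FM queens on the second principal component (52.7, against -1.43 for the next highest). The library labelled FR replicate 32 of C3 differed from the other 11 C3 queens in which contigs it carried, as described under the contigs with reads in only one colony. Whether its colony label is right was not tested, and values without it are given beside the main results and those it moves.

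The number of contigs called between the colonies depended on the method and on single queens. With the group as a term, edgeR's quasi-likelihood test called 92 of 5680 contigs at an adjusted p of 0.05, a share of 1.62%. Of these, 47 were higher in C2 (0.827%) and 45 were higher in C3 (0.792%). Another measure of the breadth was the 745 contigs with an unadjusted p under 0.05 (13.1%), where chance alone gives about 5%. The median absolute log2 fold change was 0.11 over all tested contigs and 0.75 over the called ones. That second median was the same with the 2 called contigs that had no read in C2 set at their lower bound. Without FR replicate 32, 74 contigs were called, 60 of them among the 92. Without FM replicate 6 and FR replicate 32 together, 85 were called, 65 of them among the 92. The count was more sensitive to FM replicate 9, without which it was 51, to FR replicate 28 (55), to SR replicate 39 (57) and to SR replicate 40 (55). With the estimated age as a covariate 84 were called, 60 of them among the 92. The count also depended on the method: DESeq2 called 215 and limma-voom 237, while edgeR called 50 with total counts in place of TMM, 61 with a filter of 1 CPM in 10 libraries, 46 without the group term and 23 against a minimum of 1.2-fold.

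The same fit gave the study's own contrasts in the same queens for scale. It called 1960 contigs (34.5%) between SR and FR queens. It called 83 (1.46%) between queens after and before hibernation, 50 of them higher (0.88%) and 33 lower (0.581%) after it. This contrast set the mean of FR and SR against the mean of FM and SM, so a change in FR or SR alone was averaged down. FM queens had not mated and FR and SR queens were older, so hibernation, mating and age cannot be told apart in it. The count of 83 ranged from 29 to 340 with 1 queen left out. It was 308 with DESeq2, 1146 with limma-voom, 13 with total counts and 2 against a minimum of 1.2-fold. The count between SR and FR queens was 3224 with limma-voom and 701 against 1.2-fold. Between SM and FM queens it called 0 contigs, with 457 at an unadjusted p under 0.05 (8.05%, where chance gives about 5%). DESeq2 called 14 there and limma-voom 1. Of the variance of a contig's log2 CPM, colony held a median of 2.58% with 1 of 21 degrees of freedom, group 29.6% with 3, and the queens within colony and group 63.0%. Of the 5680 contigs, colony held more than 25% of the variance in 283, and group in 3331. The shares are not adjusted for degrees of freedom. By chance alone the group term, with 3, passes that limit more often than the colony term, with 1.

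Called contigs were found at every level of expression, and their fold changes were smaller at higher levels. Sparse contigs vary more and pass only with large fold changes, so this order is in part fixed by the calling. Under 1 CPM, 25 of 1633 contigs were called (1.53%), and their absolute log2 fold changes had a median of 1.47. From 5 to 20 CPM it was 21 of 745 (2.82%), with a median of 0.65. Above 100 CPM it was 12 of 1375 (0.873%), with a median of 0.22, and 10 of those 12 were higher in C2. Of the 5680 tested contigs, only 10 were called and over 2-fold higher in C2, and 19 were called and over 2-fold higher in C3. Of these, 7 and 13 lay under 1 CPM, and none of the 29 lay above 100 CPM. The 13 include the 4 called contigs with almost no reads in C2 described below, which passed the filter through the C3 queens. For the more abundant contigs the data set a narrow limit on the colony difference. Among the 2953 contigs averaging 5 CPM or more, the 95% interval of the fold change lay inside 1.5-fold for 2575 (87.2%) and inside 2-fold for 2827 (95.7%).

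**Figure D1:**
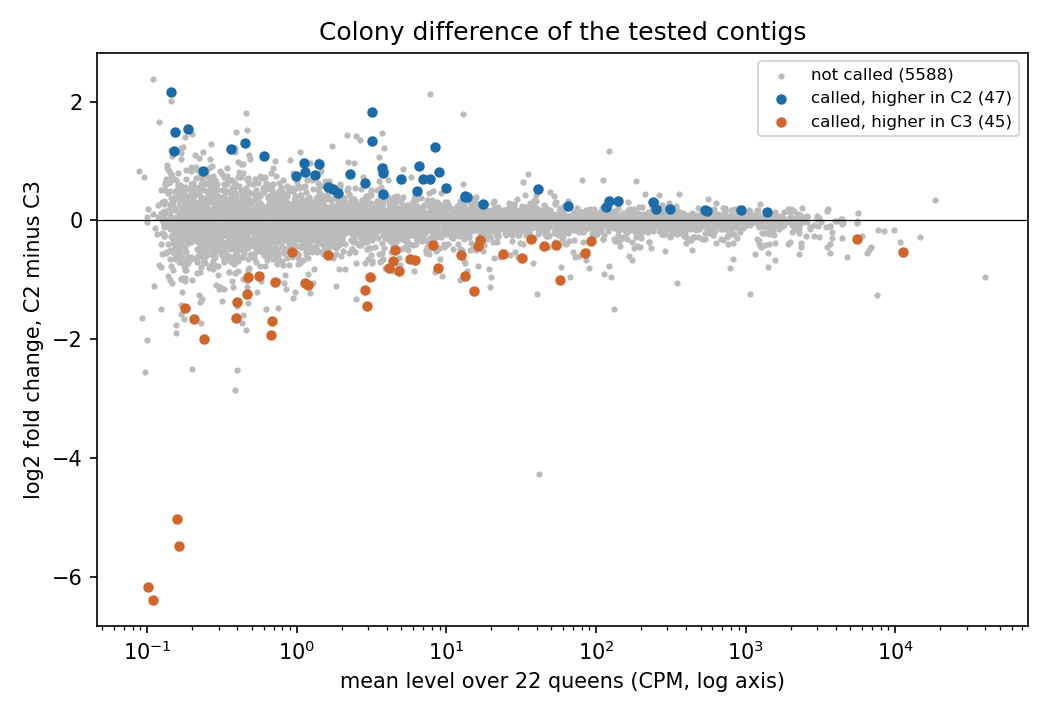
Log2 fold change of C2 over C3 queens (vertical axis) against the mean level over the 22 queens in CPM on a log axis, 1 point per tested contig. The 47 contigs called higher in C2 and the 45 called higher in C3 are coloured; the 4 points lowest on the axis have almost no reads in C2, so their fitted position depends on the fit's prior count.

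The most abundant contig of the 22 queens varied too widely within colonies for a colony difference to be seen. It held 3.25 ± 4.26% of the reads in C2 (SD, n = 10) and 3.88 ± 3.95% in C3 (SD, n = 12). The fourth in rank held 0.911 ± 0.200% in C2 and 1.27 ± 0.241% in C3 (log2 fold change -0.53, SE 0.13, adjusted p = 0.0382 by edgeR). The direction of its mean log2 CPM difference held in 3 of the 4 groups. It passed in neither stage alone (edgeR adjusted p = 0.624 before and 0.365 after hibernation). Of the 5 most abundant contigs, looked at by rank after values were seen, no other was called.

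Contig683 was higher in C2 than in C3 within every group. One direction in all 4 groups was a condition for naming it, and for naming Contig7939, Contig4871 and Contig3063 below. The level of Contig683 was 8.42, 13.1 and 7.88 CPM in the C2 FM queens against 5.17, 2.97 and 3.46 CPM in the C3 FM queens. In SM queens it was 8.42 and 10.7 CPM against 4.52, 4.71 and 4.12 CPM. No C3 queen reached a C2 queen of its own group in either set. After hibernation it was 15.8, 20.8 and 19.8 CPM in C2 FR queens against 9.63, 10.1 and 4.79 CPM in C3 FR queens. In SR queens it was 9.74 and 9.29 CPM against 3.78, 4.00 and 4.00 CPM. The groups again did not overlap. The C2 FR queens were the highest of their colony, and FR replicates 32 and 33 the highest of C3, so the colonies overlapped only across groups. The means were 12.4 ± 4.82 CPM in C2 (SD, n = 10) and 5.10 ± 2.30 CPM in C3 (SD, n = 12), with a colony log2 fold change of 1.24 (SE 0.13, adjusted p = 1.63e-05 by edgeR).

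Contig7939 had a lower and steadier level with the same direction. In C2 it was 9.53, 8.03 and 11.2 CPM in FM, 6.59 and 8.17 CPM in SM, 7.37, 8.77 and 11.1 CPM in FR, and 8.25 and 9.18 CPM in SR queens. In C3 it stayed between 3.98 and 4.99 CPM in 11 queens and was 6.75 CPM in FR replicate 33. That queen alone reached the lowest C2 value, which came from an SM queen. The means were 8.82 ± 1.49 CPM (SD, n = 10) and 4.61 ± 0.734 CPM (SD, n = 12), with a colony log2 fold change of 0.92 (SE 0.10, adjusted p = 1.63e-05 by edgeR).

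Contig4871 was higher in C3. In C3 it was 10.7, 18.2 and 19.9 CPM in FM, 17.2, 26.5 and 19.6 CPM in SM, 10.7, 33.1 and 35.4 CPM in FR, and 19.8, 16.5 and 19.7 CPM in SR queens. In C2 it lay between 5.86 and 10.8 CPM over all 10 queens. The values of 10.7 CPM in C3 belonged to FM replicate 6 and FR replicate 32, and these were the only C3 queens within the C2 range. The means were 8.98 ± 1.90 CPM (SD, n = 10) and 20.6 ± 7.65 CPM (SD, n = 12), with a colony log2 fold change of -1.18 (SE 0.18, adjusted p = 0.000865 by edgeR). Without FR replicate 32 it was -1.26 (adjusted p = 4.12e-05 by edgeR).

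Contig3063 was also called higher in C3, with more spread. Its lowest, median and highest levels were 17.8, 37.7 and 78.1 CPM in C2 and 35.8, 63.3 and 126 CPM in C3. FM replicate 4 was the highest C2 queen, against 43.3 CPM in the next, and FM replicate 6 was the lowest C3 queen. The colony log2 fold change was -1.01 (SE 0.22, adjusted p = 0.0261 by edgeR). In 12 of 39 alternatives its adjusted p was above 0.05 and reached up to 0.219, with the age covariate (0.0812) and without FM replicate 9 (0.0644) among them, and its direction was the same in each.

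The separation of single queens was examined without any test. As measured, 3 contigs were higher in all C2 queens than in any C3 queen (0.0528%) and 4 were higher in all C3 queens than in any C2 queen (0.0704%). With values centred on the group means there were 7 (0.123%) and 5 (0.088%). Without FR replicate 32 the total as measured was 12 in place of 7. Contig10591 was the one of the 7 averaging 5 CPM or more. Its 10 C2 queens lay between 7.78 and 13.7 CPM and its 12 C3 queens between 4.58 and 7.59 CPM, so the ranges nearly touched. The colony log2 fold change was 0.70 (SE 0.09, adjusted p = 0.000228 by edgeR).

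**Figure D2:**
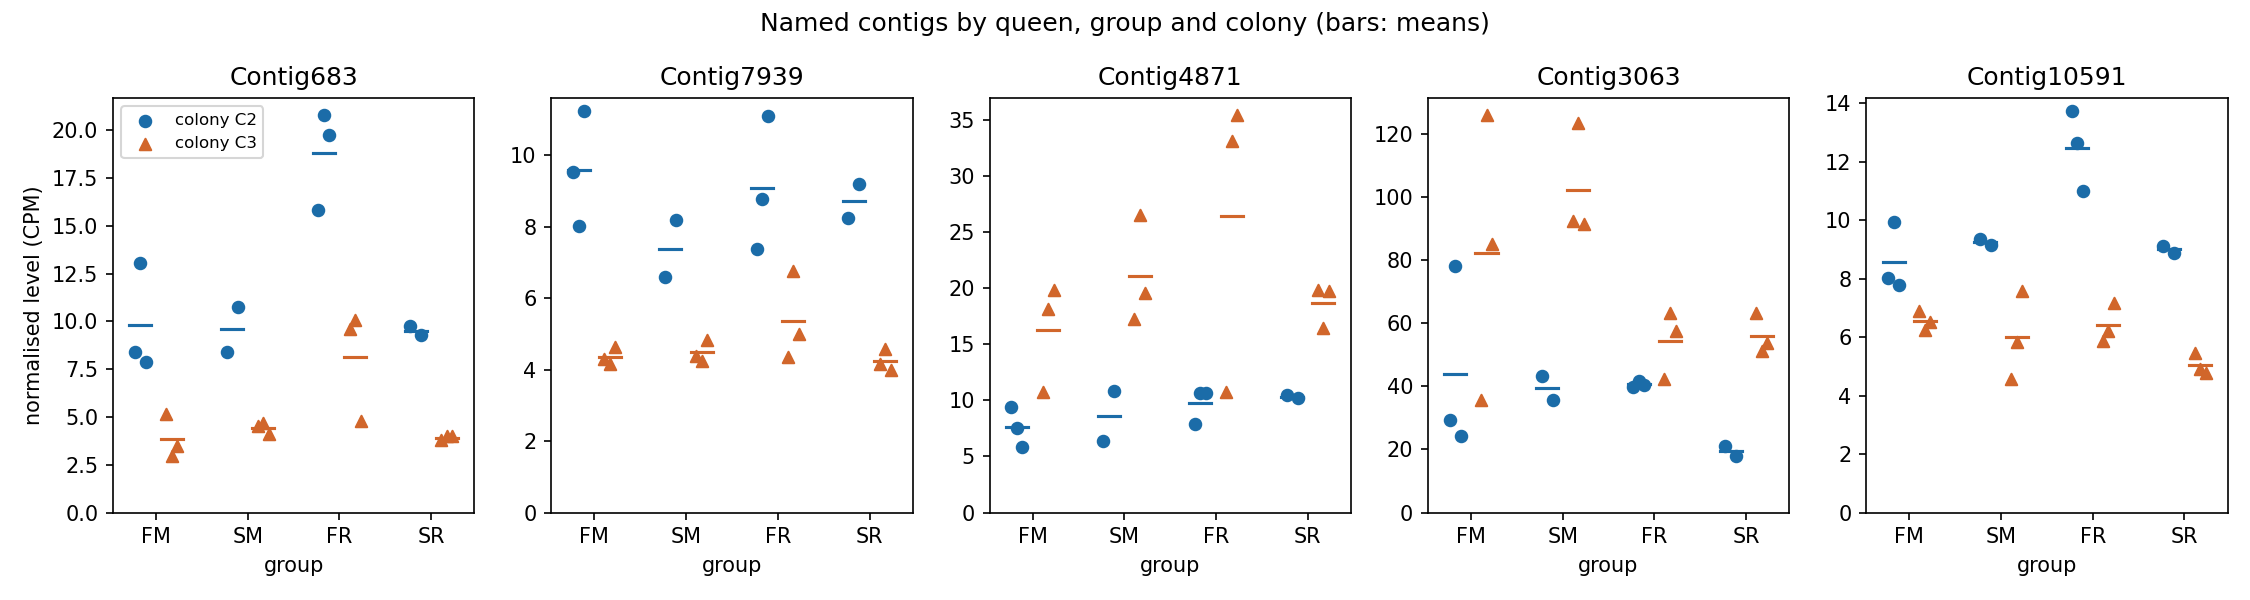
Levels in CPM (vertical axes, each starting at 0) of 5 contigs in every queen, by group (horizontal axis) and colony (circles C2, triangles C3), with bars at the means of 2 or 3 queens. Contig683, Contig7939 and Contig10591 are higher in C2 in each group, and Contig4871 and Contig3063 are higher in C3. One direction in all 4 groups was a condition for naming them, except Contig10591, which was named because its colonies do not overlap. For Contig4871, FM replicate 6 and FR replicate 32 lie within the C2 range.

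The colonies absent from the comparison gave a further view of these contigs, with levels scaled over all 33 libraries. Contig4871 was 9.48 ± 1.91 CPM in C7 (SD, n = 6) and 7.51 ± 2.43 CPM in C9 (SD, n = 5), levels like those of C2. Contig7939 was 4.28 ± 0.909 CPM in C7 and 3.80 ± 0.688 CPM in C9, levels like those of C3. Contig3063 was 26.8 ± 11.7 CPM in C7 and 8.47 ± 4.88 CPM in C9, both below the mean of either compared colony. Contig683 was 6.65 ± 1.58 CPM in C7 and 6.24 ± 1.58 CPM in C9, and Contig10591 was 6.69 ± 0.786 CPM and 8.22 ± 1.51 CPM, all between the means of C2 and C3. Each of these other colonies held queens of 1 stage, so stage and colony cannot be told apart in their levels.

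Over the called contigs, each other colony was placed on a scale running from the C3 mean to the C2 mean of the same groups. For C7, 28 of 90 contigs lay beyond C3, 23 between and nearer C3, 36 between and nearer C2, and 3 beyond C2. For C9 the counts were 33, 29, 13 and 15. The contigs were chosen for a difference between C2 and C3, so the counts describe where a colony outside that choice fell. In fits over all queens of a stage, in which comparisons share queens, edgeR called 9 contigs between C2 and C3 (0.172%), 5 between C2 and C7 (0.0954%) and 6 between C3 and C7 (0.114%) before hibernation. After hibernation it called 5 between C2 and C3 (0.0944%), 47 between C2 and C9 (0.887%) and 27 between C3 and C9 (0.51%). Whether these counts differ was not tested.

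Some contigs had reads in nearly all queens of C3 and almost none in C2. Over the whole table, 10 contigs had reads in at least 11 of the 12 C3 queens and in at most 1 of the 10 C2 queens. The reverse pattern, reads in at least 9 C2 queens and at most 1 C3 queen, was seen for 0 contigs. These limits were set after values of such contigs had been seen. All 10 contigs were sparse: summed over them, the C2 queens had 0 to 4 reads each and 7 in total. The other 11 C3 queens had 53 to 140 reads each, with a median of 89. FR replicate 32 had 2 reads in total, within the C2 range, and for 9 of the 10 contigs it was the one C3 queen without a read. Only 4 of the 10 passed the filter on low counts, and they did so through the C3 queens. That all 4 were called was fixed by how they were chosen.

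Contig9475 and Contig9156 were the 2 called contigs with no read in any C2 queen, and both were picked out after their values were seen. Contig9475 had reads in 12 of 12 C3 queens, from 2 to 18 each and 105 in total. Against a floor of 3 reads over the C2 group, its share of reads was at least 29.5-fold higher in C3. FR replicate 32 and FM replicate 6 had 2 reads each. Contig9156 had 118 reads in 11 C3 queens, with 0 in FR replicate 32, and was at least 33.1-fold higher in C3 by the same floor. Counting intervals and floors cover counting error only.

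The other colonies split on these contigs. All 10 contigs had reads in all 5 C9 queens, with 59 to 150 summed reads per queen. In the 6 C7 queens the sums were 0 to 5 reads, and 5 of the contigs had none. Contig9475 had 7 to 33 reads per C9 queen and 0 in C7. Across the 11 other C3 queens, the levels of the 10 contigs moved together weakly, with a median pairwise r of 0.33 and a range from -0.25 to 0.93.

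To see how single queens fell, each was left out in turn and placed on the contigs that edgeR called without it. A queen was on its own side of a contig when it lay nearer the mean of its own colony, adjusted for group. C2 queens were on their own side for 65.3 to 87.3% of those contigs, with a median of 73.3%. C3 queens were on their own side for 45.9 to 88.2%, with a median of 75.2%. In all, 21 of 22 queens were on their own side for most contigs. The exception was FR replicate 32, on its own side for 34 of 74. It lay on the C3 side for 21 of 35 contigs higher in C2, but for only 13 of 39 contigs higher in C3. The shares describe these queens and carry no test.

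**Figure D3:**
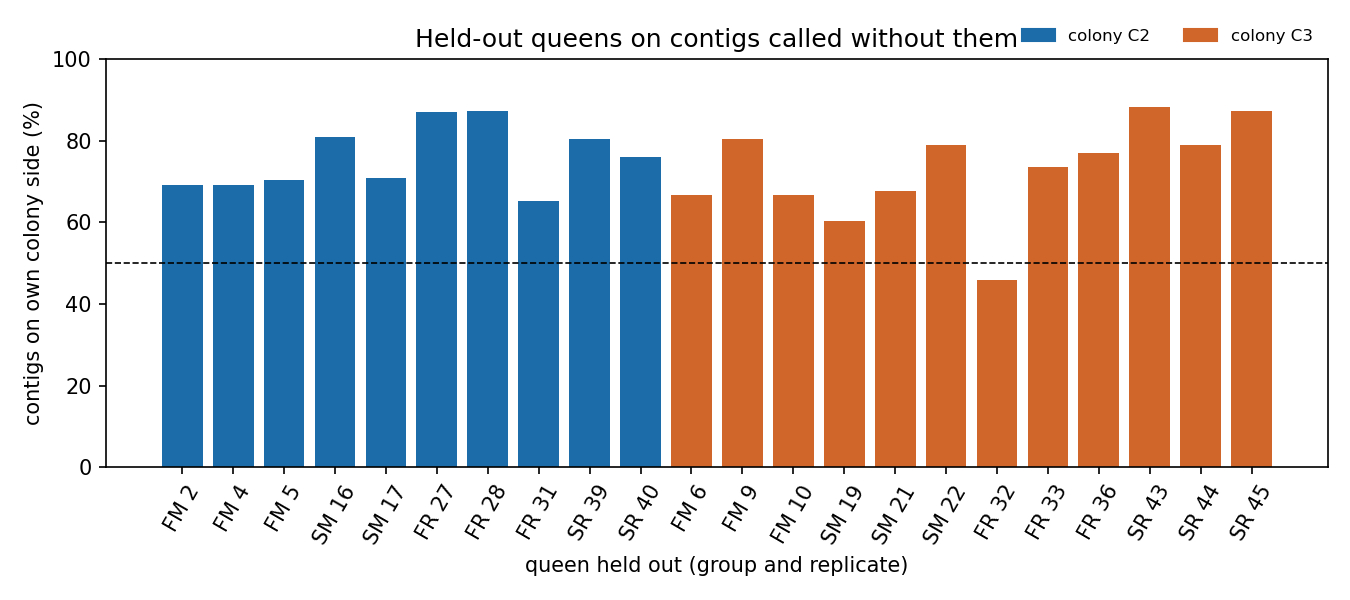
Share of contigs (vertical axis, percent) on which a queen lay nearer her own colony, for contigs called with that queen left out; each bar is 1 queen and the dashed line marks 50% of the contigs. The shares run from 65.3 to 87.3% in C2 and from 45.9 to 88.2% in C3, with FR replicate 32 the one queen under the line.

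The colonies were also compared on components that chose no contig. After each contig was centred on its group means, the first principal component held 23.6% of the variance and did not separate the colonies. Its scores were 1.15 ± 19.4 in C2 (SD, n = 10) and -0.954 ± 17.9 in C3 (SD, n = 12; exact permutation within groups, two-sided, adjusted p = 0.879 over 6 components). The third component, with 8.71% of the variance, did. Scores on it were 9.83 ± 3.53 in C2, from 4.19 to 15.6, and -8.19 ± 7.79 in C3, from -22.9 to 4.86. The exact permutation p was 2.5e-05, the smallest that the 40000 arrangements of labels can give, and 0.00015 adjusted.

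All 10 C2 queens scored above 0 on the third component and 10 of 12 C3 queens below it. The exceptions were FM replicate 6 at 4.86 and SM replicate 19 at 4.18. FR replicate 32 scored -12.5, among the other C3 queens. Without FR replicate 32 the difference of 18.1 was 19.7 (exact permutation adjusted p = 0.0003). Without FM replicate 10, the lowest C3 queen, the difference was 7.34 and no longer passed (exact permutation adjusted p = 0.282). The components matched to the second and the fourth then passed (exact permutation adjusted p = 0.0063 and 0.012). With queens left out, components were taken anew. Each original component was then matched to the new one whose scores correlated most with its own. The second component, with 15.2%, did not pass over all 22 queens (adjusted p = 0.205), nor did components 4 to 6.

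**Figure D4:**
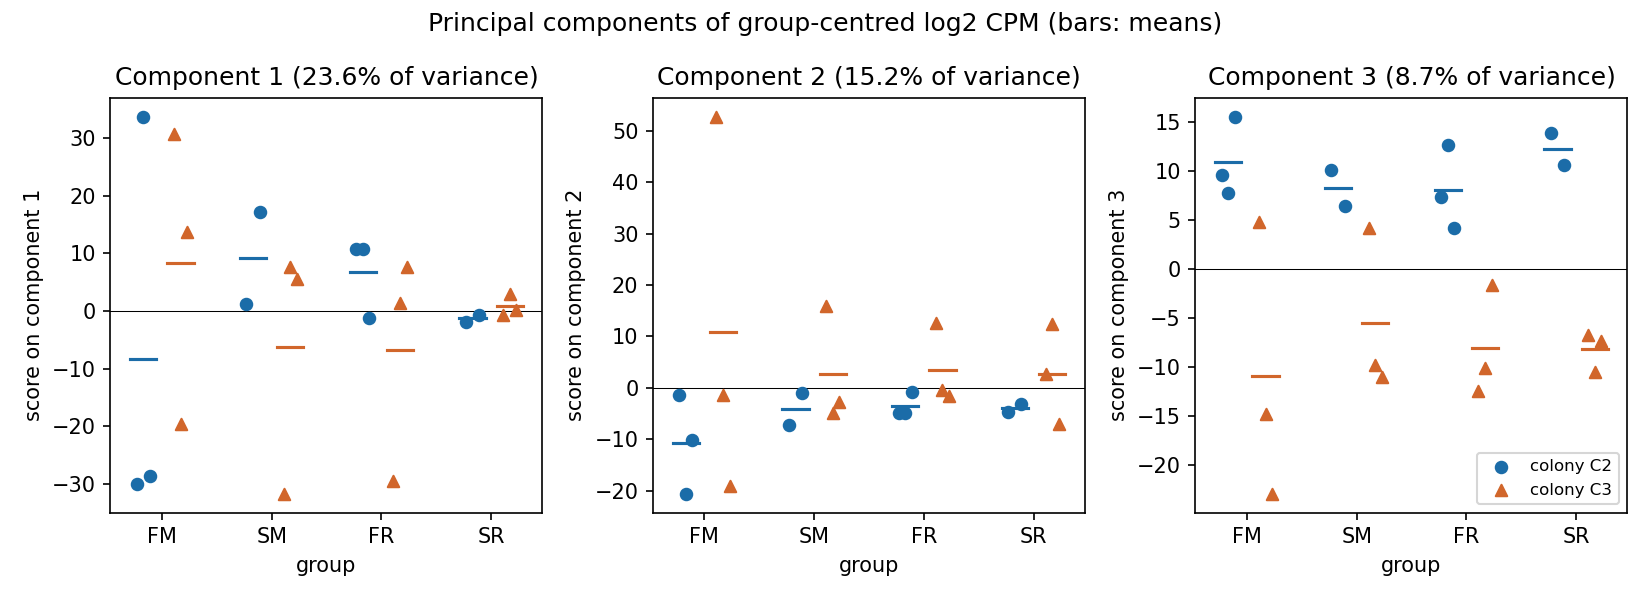
Scores of the 22 queens on the first 3 principal components of group-centred log2 CPM (vertical axes, score units), by group and colony (circles C2, triangles C3), with bars at the means of 2 or 3 queens. Colonies overlap fully on component 1, FM replicate 6 stands apart at 52.7 on component 2, and on component 3 all C2 queens lie above 0 and all C3 queens but 2 below.

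Over all contigs at once, no added distance between colonies was detectable above that among sisters. The root mean square difference of log2 CPM between queens of the same group was 0.742 for 30 pairs from different colonies and 0.737 for 20 pairs from the same colony. The difference of 0.00451 did not pass an exact permutation test within groups (two-sided, p = 0.837), which does not show that the distances are equal. It was negative without FR replicate 27 (-0.0103) and 0.0207 without FM replicate 9, the widest values from leaving out 1 queen. By group, pairs from different colonies were at 0.926 in FM, 0.715 in SM, 0.640 in FR and 0.645 in SR queens. Pairs within C3 were at 0.981 in FM, 0.774 in SM, 0.689 in FR and 0.629 in SR queens, and pairs within C2 at 0.898, 0.636, 0.542 and 0.571, with 1 pair behind each SM and SR value of C2. Without FR replicate 32 the order in FR queens turned, with the 1 remaining C3 pair at 0.496 and the C2 pairs at 0.540, and pairs from different colonies were at 0.549.

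The spread among sisters was wider in C3 for most contigs. The median SD of log2 CPM within groups was 0.292 in C2 and 0.347 in C3, and 0.334 in C3 without FR replicate 32. C3 had the larger SD in 61.3% of the 5680 contigs, and in 57.3% of 5666 without FR replicate 32. FM replicate 6 and SM replicate 19, which also stood apart in C3, were kept in all these values. Contigs are not independent of each other, and the difference in spread was not tested.

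The colony difference was then estimated in separate queens of each stage. Before hibernation, in 5 C2 and 6 C3 queens, edgeR called 7 of 5295 contigs (0.132%), 3 higher in C2 (0.0567%) and 4 higher in C3 (0.0755%). After hibernation, in 5 and 6 other queens, it called 5 of 5421 (0.0922%), all higher in C2. Neither count was stable. Leaving out any one of the 11 queens before hibernation left 0 calls, and the age covariate also left 0. After hibernation the count was 26 without FR replicate 32, 11 of them higher in C2 and 15 in C3, and 1 without FR replicate 28 and without 4 of the SR queens, replicates 40, 43, 44 and 45. It was 2 without SR replicate 39 and 3 without FR replicate 33.

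Although few contigs passed in either stage, the directions were shared. Of the 7 contigs called before hibernation, 5 could be tested after it, and all 5 had the same direction and an unadjusted p under 0.05 there. Contig683 was the one called in both stages, with a log2 fold change of 1.24 ± 0.19 before (SE, edgeR adjusted p = 0.0496) and 1.25 ± 0.17 after hibernation (edgeR adjusted p = 0.0209). Contig7939 was called before (0.96 ± 0.14, edgeR adjusted p = 0.0477) and missed the threshold after (0.89 ± 0.14, edgeR adjusted p = 0.0510). For Contig10591 the log2 fold change was 0.50 ± 0.15 before (edgeR adjusted p = 0.580) and 0.91 ± 0.10 after (edgeR adjusted p = 0.00676). Contig4871 had values of -1.18 ± 0.22 and -1.17 ± 0.27 and passed in neither stage alone (edgeR adjusted p = 0.122 and 0.159). Contig10591 and Contig4871 were not among the contigs called before hibernation. Both were named from the queens of both stages together, by rules that fix one direction in each stage. Their shared direction is therefore built in and is no separate check. Contig683 and Contig7939 were named in that way too, but both were also called before hibernation alone.

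A wider list showed the same direction more often than the table as a whole. Of 325 contigs with an unadjusted p under 0.05 before hibernation, 276 had the same direction after it (84.9%), against 3255 of all 5231 contigs in both fits (62.2%). Of the 325, 105 also had an unadjusted p under 0.05 in the same direction after hibernation, where 9.42% of all 5231 contigs had an unadjusted p under 0.05. Chosen after hibernation, 419 of 493 had the same direction before it (85.0%). Without FR replicate 32 these were 281 of 324 (86.7%) and 467 of 560 (83.4%), against 61.9% of all contigs in both fits. Across all 5231 contigs Pearson's r between the stages' log2 fold changes was 0.38 and Spearman's rho was 0.35. Contigs share queens and are not independent replicates, so this is a description. Of the 92 contigs called over all 22 queens, 80 were in both fits and all 80 had the same direction in both, which is partly built in.

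**Figure D5:**
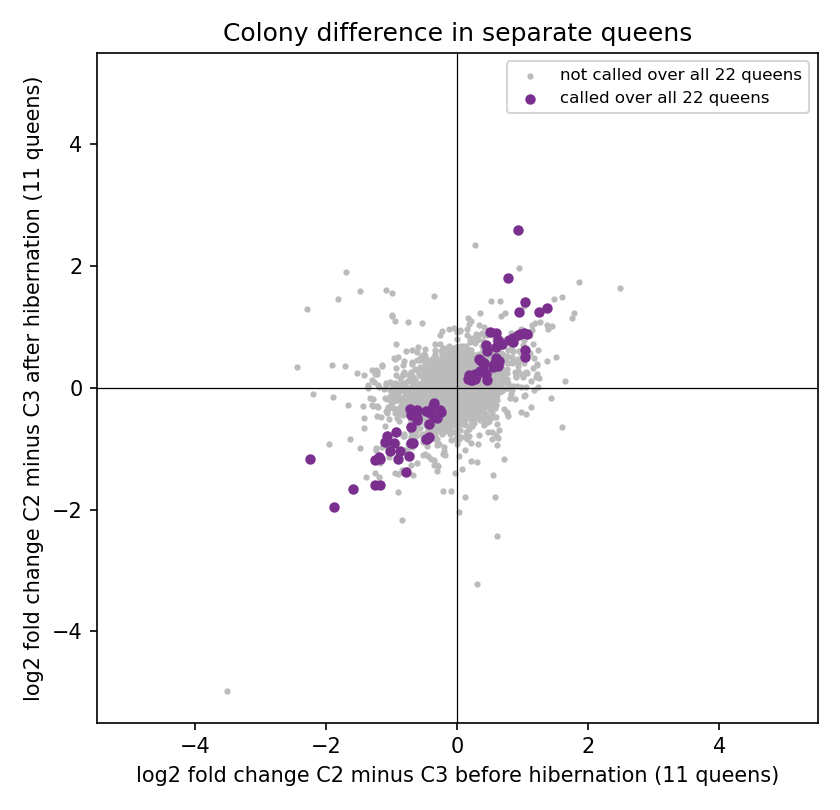
Log2 fold change of C2 over C3 in the 11 queens before hibernation (horizontal axis) against that in the 11 queens after it (vertical axis), 1 point per contig in both fits. The 80 contigs called over all 22 queens all lie in the lower left or upper right quadrant, as part of that choice, and 62.2% of all 5231 contigs do.

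In edgeR, no contig passed a test of whether the colony difference changed with the stage or with the outcome. For the stage, edgeR called 0 of 5680 contigs, with 136 at an unadjusted p under 0.05 (2.39%), and DESeq2 and limma-voom also called 0. For the outcome, SM and SR against FM and FR, edgeR called 0, with 140 at an unadjusted p under 0.05 (2.46%), DESeq2 called 3 and limma-voom 0. Both shares lay below the 5% that an unadjusted p under 0.05 gives by chance. With 2 or 3 queens per colony and group, a miss does not show that the colony difference was equal in the groups.

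By the lowest p, 4 contigs were named for the stage, as values with no call. Contig3778 had a colony log2 fold change of -0.44 ± 0.19 (SE) before and 0.44 ± 0.11 after hibernation, a difference of 0.88 ± 0.23 (edgeR adjusted p = 1.00). Contig5182 was -0.75 ± 0.15 before and -0.00 ± 0.13 after (difference 0.75 ± 0.21). In the other direction, Contig792 was 0.53 ± 0.28 before and -0.72 ± 0.25 after (difference -1.25 ± 0.40), and Contig62 was 0.18 ± 0.12 and -0.24 ± 0.10 (difference -0.42 ± 0.14). None of these 4 came near an adjusted p of 0.05 in edgeR.

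For the outcome, the colony difference of Contig3716 was higher by 0.40 ± 0.13 (SE, log2) and that of Contig540 by 0.53 ± 0.20 in the SM and SR queens than in the FM and FR queens. Contig8037 had a difference of -0.83 ± 0.19 (edgeR adjusted p = 0.909) and was called by DESeq2 alone (adjusted p = 0.0264). Contig4505 had a difference of -2.0 ± 0.57 (edgeR adjusted p = 1.00), with wide values in both colonies. In C3, SR replicates 43 and 44 had 2379 and 2074 CPM and SR replicate 45 had 420 CPM, while SM replicate 19 had 1259 CPM. In C2, FM replicate 4 had 986 CPM, against 618 CPM in the next queen.

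How far the called contigs moved together within a colony was described by their correlations. The median absolute correlation between pairs of the 92 contigs, centred on group means, was 0.35 over the 10 C2 queens and 0.29 over the 12 C3 queens, or 0.28 without FR replicate 32. Over a regular sample of the tested contigs, 1 in 5, it was 0.40 and 0.32. In so few queens such correlations are wide, and they are given as a description.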

How the data were processed

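Brain mRNA libraries were sequenced from individual queens, per the labels' protocols. The raw read counts were deposited as whole numbers per contig and library, per the file headers. Among the tools in the submitters' processing notes are TopHat and SAMtools, besides FastQC and edgeR, with no version. For the build, the annotation and the counter, the sources used here give no name. Tables of scaled and normalized scores were not used here. No pair of the 22 libraries agreed within sampling noise (231 pairs, lowest chi-square per degree of freedom 82.3).

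Groups and colonies came from the labels, and every library column belonged to a sample. Low counts were removed with filterByExpr by group, at a minimum of 10, leaving 5680 contigs with 99.99% of the reads, and 1993 contigs had no read in the 22 libraries. Counts were TMM-scaled and fitted with group and colony as terms by edgeR 4.0.16 (robust quasi-likelihood, R 4.3.3), with Benjamini-Hochberg adjustment over all tested contigs and calls at 0.05. A standard error is the size of the log2 fold change over the root of its F statistic. Log2 CPM used a prior count of 2. Queens are the replicates.

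DESeq2 1.42.0, limma 3.58.1 voom with quality weights, other scalings, filters and terms, a test against 1.2-fold and leaving out libraries were the alternatives. Calls were tested on simulated data first.

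The comparison, the tests and the rule for named contigs were chosen with earlier results of these data known. Identifiers carry no gene names, so at most 2 contigs per direction were named: among called contigs with at least 5 CPM and one direction in all 4 groups, those with the largest fold change. For contigs that do not overlap between colonies, those with at least 5 CPM were named. Before hibernation the rule named contigs not already named and found none. For the interactions, with fewer than 5 calls, the contigs with the lowest p and at least 5 CPM were named as values only. The left-out queens, the contigs with reads in one colony, the placing of C7 and C9, the fits of colony pairs, the variance shares, the spread among sisters, the values without FR replicate 32 for distances, spread and directions, the interval widths and the correlations between contigs were added to that plan afterwards.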

Additional observations from a re-analysis of the deposited data

Results flagged for a closer look

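Values were screened for a queen far from the rest, measured as the gap to the nearest other queen over the range of the set. The sets were the C2 and C3 queens of each group and the 10 queens of C2. Of 115 sets 15 were flagged, where chance flags about 5%. On the group-centred components, FR replicate 32 scored -29.4 on component 1, against -1.24 for the next lowest FR queen. On component 2, FM replicate 6 scored 52.7 (next -1.43), SM replicate 19 scored 16.0 (next -1.0) and FR replicate 32 scored 12.7 (next -0.451) as the highest of their groups, all from C3. Within C2, FM replicate 4 was the lowest on component 2 at -20.6 (next -10.2) and on component 6 at -17.8 (next -2.27). SM replicate 19 scored -19.0 on component 6, against 1.24 for the next SM queen. When left out, FM replicate 9 of C3 lay on its own side for 80.4% of contigs, against 70.5% for the next FM queen.

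Single contigs gave the rest. Contig3063 was 78.1 CPM in FM replicate 4, against 43.3 CPM in the next C2 queen. Contig4505 was 986 CPM in the same queen, against 451 CPM in the next FM queen and 618 CPM in the next C2 queen. Contig3778 was 1956 CPM in SM replicate 19 (next 1202 CPM), Contig792 was 143 CPM in SR replicate 43 (next 62.6 CPM), and Contig540 was 17549.5 CPM in SM replicate 21 (next 12016 CPM). Contig3716 was lowest in SM replicate 22, at 110 CPM against 132 CPM for the next. Contig3778, Contig792, Contig3716, Contig540 and Contig4505 are contigs for which no call was made.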

How the results depend on the processing

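The 92 calls between colonies became 215 with DESeq2 (all 92 among them), 237 with limma-voom (90 among them), 50 with total counts in place of TMM, 61 with a filter of 1 CPM in 10 libraries, 46 without the group term and 23 against 1.2-fold. They were 41, 32, 24 and 28 without the FM, SM, FR or SR queens, an alternative chosen after the data were seen. DESeq2 size factors, upper-quartile scaling, no filter, all 33 libraries, the age covariate, and leaving out the 10 most abundant contigs gave 79 to 123, and leaving out 1 queen 51 to 98. The 7 calls before hibernation became 35 with DESeq2, 15 with limma-voom, 11 without the group term, and 0 with total counts, the 1 CPM filter, the age covariate, the 1.2-fold test or any 1 queen left out (0 to 0). The 5 after hibernation became 87 with DESeq2, 35 with limma-voom, 11 with the age covariate and 0 without the group term, and 1 to 26 with 1 queen left out. Contigs called before hibernation with the same direction after it numbered 5 (0 to 6 with 1 queen left out), and those called in both 1 (0 to 5). No overlap as measured held for 7 contigs, 4 with the 1 CPM filter and 6 to 12 with 1 queen left out; centred on groups it was 12 (10 to 18).

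For the stage interaction every alternative gave 0 calls, and for the outcome DESeq2 gave 3 and the others 0. Between SM and FM, DESeq2 gave 14, limma-voom 1 and leaving out 1 queen 0 to 1. Between SR and FR, limma-voom gave 3224, the 1.2-fold test 701 and leaving out 1 queen 1440 to 2291. After against before hibernation, 83 became 308 with DESeq2, 1146 with limma-voom, 13 with total counts, 55 with no filter, 128 with the age covariate, 2 against 1.2-fold, 421 without FM replicate 6 and FR replicate 32 (chosen after the data were seen), and 29 to 340 with 1 queen left out.

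The distance difference turned negative with total counts (-0.000988) and the 1 CPM filter (-0.00929), and ranged from -0.0103 to 0.0207 with 1 queen left out. With 1 queen left out, colony differences ranged from -6.18 to 7.46 on component 1, -17.0 to -5.76 on component 2, 7.34 to 20.1 on component 3, -0.81 to 13.7 on component 4, -1.84 to 3.91 on component 5 and 0.14 to 4.95 on component 6. Without FM replicate 6 and FR replicate 32 together, component 2 differed by -2.73 and component 3 by 21.4. The 1 CPM filter gave 6.82 on component 5 (exact permutation adjusted p = 0.0440). For all these component values, components were taken anew and matched to the original ones by the correlation of their scores. Contig683, Contig7939, Contig4871 and Contig10591 were called in all 39 alternatives, and Contig3063 in 27. The causes of these changes were not tested. No paired analysis was possible because the groups and colonies share no replicate numbers. With 2 or 3 queens per colony and group, the number of queens limits the precision of every value here.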
